A study of Nothobranchius furzeri with 39 samples.

Results

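Brains of cgas mutant killifish were compared with brains of wild-type (WT) killifish at 3 months of age. The turquoise killifish, Nothobranchius furzeri, is a short-lived fish used in studies of ageing. The comparison takes 7 of the 39 samples of the series: all brain libraries of the 3-month cgas experiment that hold counts. They are 5 cgas mutants (females 1, 2 and 3 and males 2 and 3) and 2 WT fish (female 4 and male 3). For cgas male 1, the sixth mutant of the labels, the table lists 0 counts in every gene, and it enters no comparison. The labels give neither the allele of the mutants nor whether fish shared a clutch, and nothing says that the samples are more than single fish. The study as a whole addresses cGAS-STING signalling in fish with mutations in DNA repair genes. Its brains at 2 months of age, 12 in all, come from a separate experiment with 4 atm cgas double mutants, 4 atm mutants and 4 WT fish, and are used below as a further measure of what a killifish brain library holds.

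The enzyme cGAS binds double-stranded DNA in the cytosol and makes the cyclic dinucleotide cGAMP, which activates the adaptor STING on the endoplasmic reticulum. STING recruits the kinase TBK1, which activates the transcription factor IRF3, and NF-kB is activated as well, so that interferon and inflammatory genes are transcribed. In the brain, microglia, the resident macrophages, are a main site of this signalling, while neurons are known to express little of it.

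Each library held 10.998 to 17.3 M counts (M, units of 1000000 counts) over the 16383 genes of the table, and the 12 brains at 2 months held 12.0 to 25.1 M over the same genes. These are the first 16383 of 25099 gene names of the 2-month table, so members of gene lists that come later were not analysed here. The 20 most-counted genes took 16.9 to 38.2% of the counts in cgas mutants and 11.5% in both WT libraries, against 5.13 to 6.09% in 2-month brains. The labels give the tissue as brain, although their extraction text for these samples speaks of livers. Neuronal markers were abundant in all 7 libraries, and so were markers of other tissues, which are therefore given first.

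Skeletal and cardiac muscle genes were far more abundant in these libraries than in 2-month brains, and most abundant in the mutants. The 48 muscle genes of the list together took 15.4, 13.6 and 8.11% of all counts in cgas females 1, 2 and 3 and 22.2 and 26.1% in cgas males 2 and 3, against 4.73% in WT female 4 and 4.62% in WT male 3. All 5 mutants lay above both WT libraries, and all 7 libraries lay above the 0.0941 to 0.281% of the 2-month brains. The gene acta1, the actin of skeletal muscle fibres, reached 47526, 37370, 18928, 86625 and 138922 counts per 1000000 counts (CPM, with TMM-scaled library sizes) in cgas females 1, 2 and 3 and males 2 and 3. It reached 11153 CPM in WT female 4 and 12366 CPM in WT male 3, and 10.7 to 551 CPM in 2-month brains. Levels at 2 months, here and below, are CPM over the same genes but scaled within their own experiment, so they are set beside the 3-month levels without a test.

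**Figure D1:**
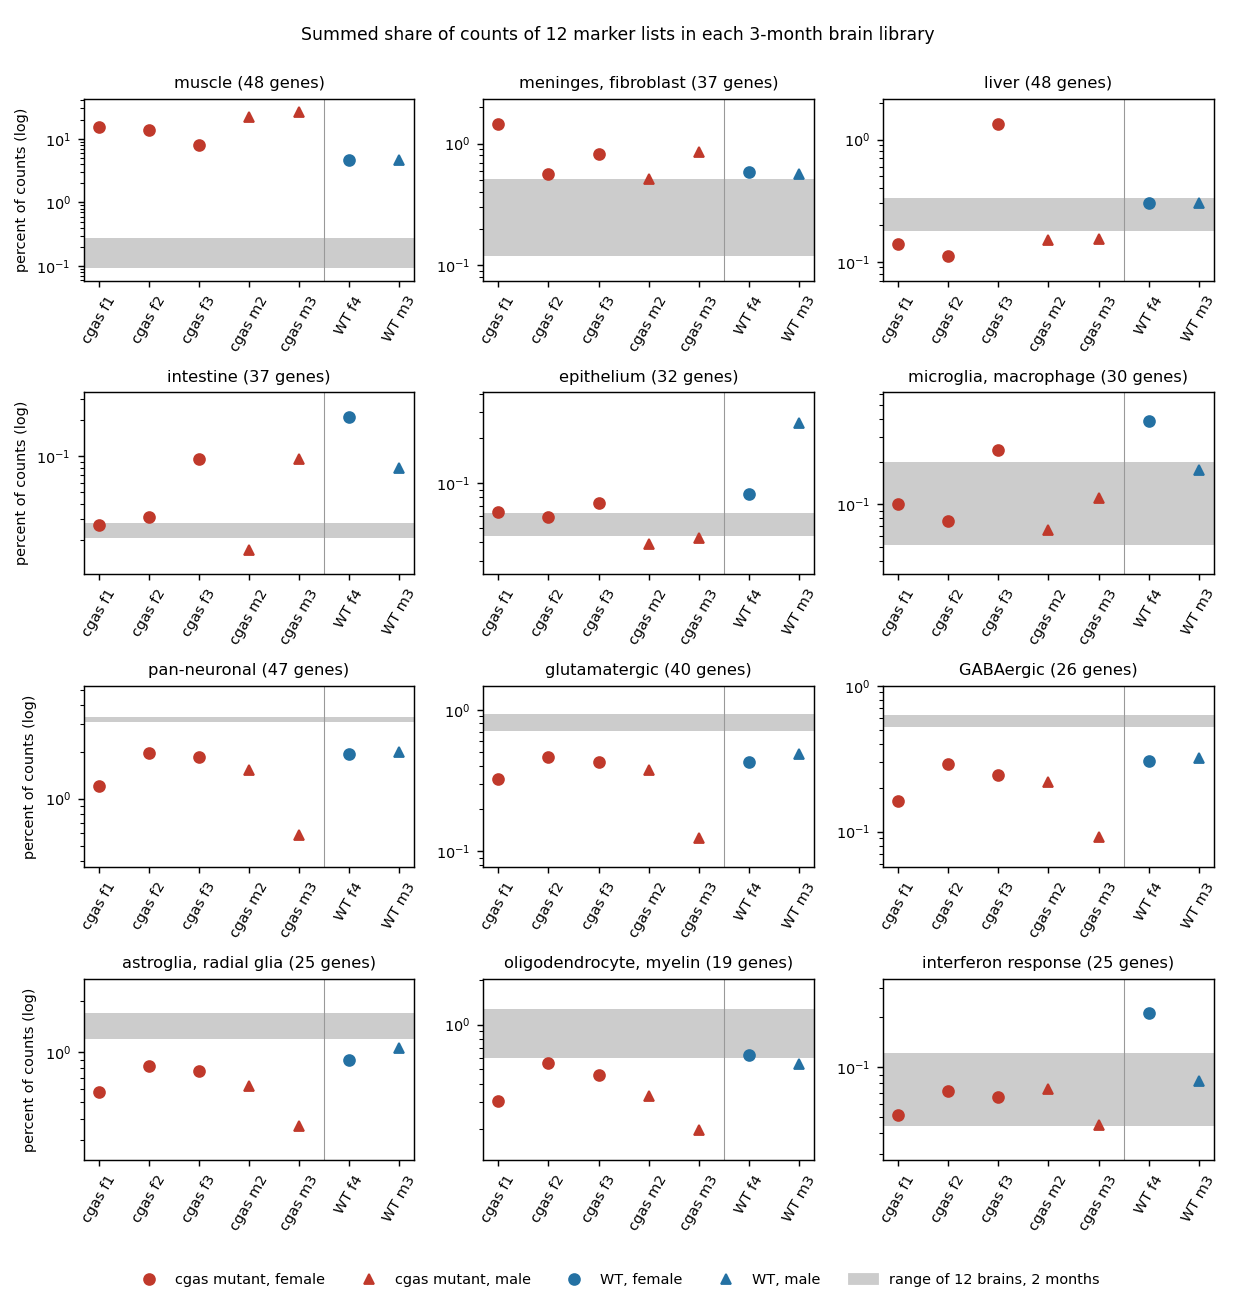
Summed share of counts (percent, log axis) of 12 marker lists in each library, with the 5 cgas mutants left of the line and the 2 WT fish right of it. Grey bands are the range of the 12 brains at 2 months. The muscle share runs from 8.11 to 26.1% in mutants and is 4.73 and 4.62% in WT, the liver share stands apart in cgas female 3 at 1.33%, and the intestinal share is highest in WT female 4 at 0.214%.

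Pan-neuronal genes, which encode synaptic vesicle, axonal and RNA-binding proteins shared by most neurons, took 1.21, 1.97 and 1.85% of counts in cgas females 1, 2 and 3 and 1.52 and 0.582% in cgas males 2 and 3, against 1.94% in WT female 4 and 2.00% in WT male 3. All 7 values lay below the 3.09 to 3.319% of 2-month brains. The mutants spanned a wide range, cgas male 3 was lowest, and cgas female 2 lay between the 2 WT values. In these bulk samples, fewer cells of a type and less RNA per cell cannot be told apart. The part that RNA of other tissues has in the differences below was not tested, apart from the fits given beside them.

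The targeted gene was examined next. It is listed under its older symbol mb21d1, and was at 1.10, 1.08 and 0.647 CPM in cgas females 1, 2 and 3 and 0.795 and 1.09 CPM in cgas males 2 and 3, against 17.6 CPM in WT female 4 and 1.27 CPM in WT male 3. The mutants did not overlap with WT, but WT male 3 lay close above them, and 1 library, WT female 4, stood far apart. The mean log2 CPM differed by -2.22 (n = 5 and 2, two-sided exact permutation p = 0.0476, the smallest p that this design allows). Without WT female 4 the difference was -0.41, and without WT male 3 it was -4.04. Across all genes, the log2 fold change was -2.96 (SE 0.816, edgeR adjusted p = 0.290). In 2-month brains, mb21d1 ranged from 0.282 to 6.14 CPM.

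The adaptor gene sting1 was at 9.36, 4.55 and 3.07 CPM in cgas females 1, 2 and 3 and 5.17 and 7.07 CPM in cgas males 2 and 3, against 35.8 CPM in WT female 4 and 4.82 CPM in WT male 3. Again WT female 4 was high, while WT male 3 lay within the mutants. The difference in log2 CPM was -1.25 (n = 5 and 2, two-sided exact permutation p = 0.190), and it turned to 0.17 without WT female 4. The kinase gene tbk1 lay between 74.5 and 83.1 CPM in mutants and at 78.6 and 84.3 CPM in WT, a narrow range in which the groups overlapped. Of the 23 genes of the cGAS-STING list, 0 were higher and 0 were lower by edgeR's quasi-likelihood test at an adjusted p under 0.05, 1 was lower by DESeq2, 0 passed by limma voom, and 1, mb21d1, had an unadjusted p under 0.05 by edgeR. Their median log2 fold change was -0.14, beside 0.015 over all genes tested, and 0.030 when the libraries were scaled on neuronal genes.

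**Figure D2:**
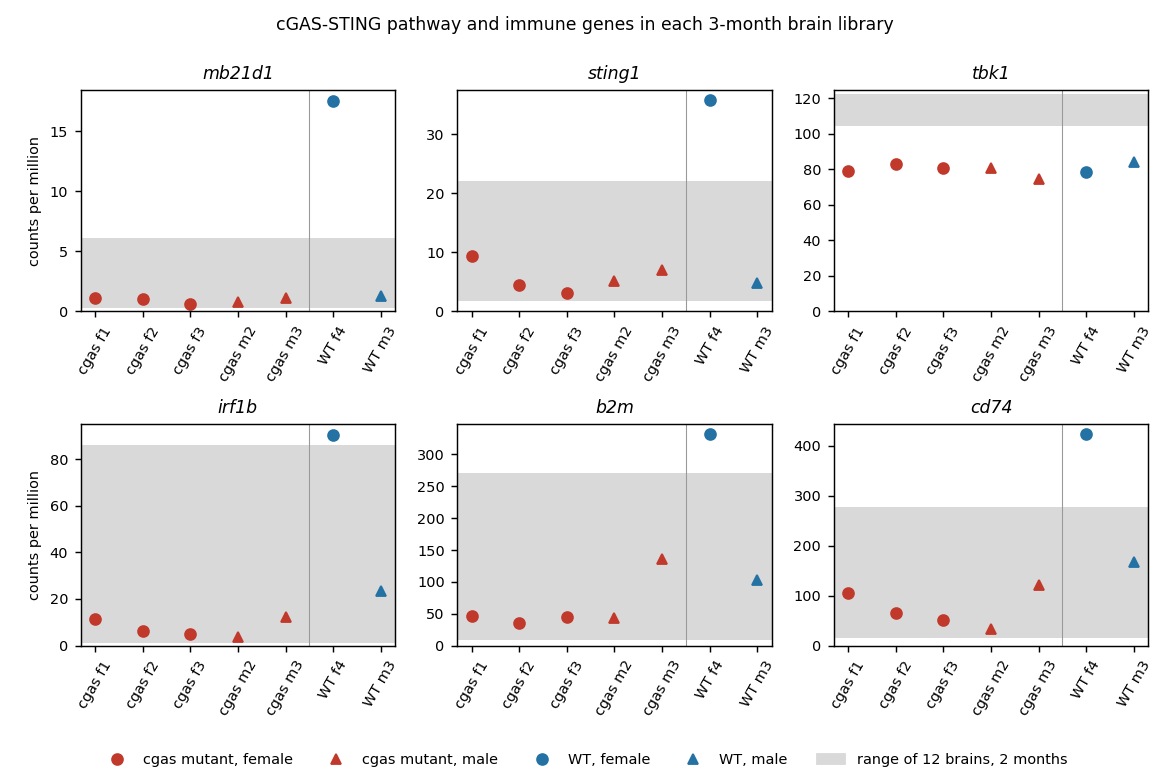
CPM of 6 genes of cytosolic DNA sensing and immune response in each library, cgas mutants left of the line and WT right of it, with the range of 12 brains at 2 months in grey. WT female 4 stands above all mutants in mb21d1 (17.6 CPM), sting1 (35.8 CPM), irf1b (90.6 CPM), b2m (331 CPM) and cd74 (423 CPM), while tbk1 lies between 74.5 and 84.3 CPM in all 7.

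With sex as a covariate, 64 of 13825 genes tested (0.463%) passed an adjusted p of 0.05 by edgeR. Of these, 5 (0.0362%) were higher and 59 (0.427%) lower in cgas mutants, and 1160 (8.39%) had an unadjusted p under 0.05, 701 (5.07%) higher and 459 (3.32%) lower. All 64 had no overlap between mutants and WT, which held for 1186 tested genes in the higher direction (8.58%) and for 644 in the lower direction (4.66%). DESeq2 called 642 genes (4.64%), 396 higher (2.86%) and 246 lower (1.78%). The test of limma voom called 114 (0.825%), 20 higher (0.145%) and 94 lower (0.68%). The edgeR count was 0 without WT female 4, 16 without WT male 3, and 21, 7, 28 and 36 without cgas female 1, female 2, female 3 and male 2. With the log2 muscle share as a further covariate, chosen after seeing the data, 0 genes passed and 416 had an unadjusted p under 0.05. Every mutant had a higher muscle share than both WT libraries. This fit therefore cannot well separate that share from genotype. It is no correction for muscle, neither here nor where list medians from it are given below. Without WT female 4, and with this covariate, the 15 called genes named below kept their direction. With the covariate the log2 fold changes of some moved by several units. The SE grew in the examples that follow. For muc13b, an intestinal mucin gene described below, the fold change was -10.42 (SE 0.531) with all libraries, -9.75 (SE 1.08, edgeR adjusted p = 0.0675) without WT female 4 and -13.75 (SE 1.77, adjusted p = 0.734) with the muscle covariate. For mical2, a higher gene, it was 1.43 (SE 0.195), 1.52 (SE 0.315, adjusted p = 0.151) and 1.51 (SE 0.491, adjusted p = 1.00). For slc13a2, -8.67 (SE 0.983) became -3.05 (SE 4.70) with the covariate.

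Of the 59 lower genes, 9 stood in 1 of the 30 lists, and 8 of these were genes of the intestinal lining. Of 37 genes of the intestine list, 8 were lower and 0 higher (edgeR), 18 had an unadjusted p under 0.05, all of them lower, and the list's median log2 fold change was -1.61. Over all genes tested, edgeR called 0.427% lower, and 3.32% were lower at an unadjusted p under 0.05. The ninth, nr0b2, stood in the liver list, and the other 50 stood in none. Most fold changes of the liver list had the other sign, but the summed share was high in 1 mutant only. Of 42 liver genes tested, 36 had a log2 fold change above 0 and 6 below, with a median of 0.93. All mutants lay above both WT libraries in 2 of them, and below both in 2. The liver share was highest in cgas female 3, at 1.33%. In the other mutants it was 0.112 to 0.154%, below the 0.302% of WT female 4 and 0.304% of WT male 3. The summed intestinal share was 0.0267, 0.0311 and 0.0942% in cgas females 1, 2 and 3 and 0.0165 and 0.0945% in cgas males 2 and 3, against 0.214% in WT female 4 and 0.0795% in WT male 3. It was 0.0209 to 0.0276% in 2-month brains. The groups overlapped in this sum. In cgas female 3 the sum took in 5451 counts of apobb.1, against 93 in WT female 4 and 48 in WT male 3. In cgas male 3 it took in 3343 counts of cdh17 and 3253 of ggt1b. These genes had 3116 and 282 counts in WT female 4 and 643 and 41 in WT male 3. The sum without these members was not computed. Genes almost without counts in mutants, such as tmprss15 below, entered the tests through their WT level and could only be called lower. With a stricter filter, at least 10 counts in 5 libraries, 6 of the 15 called genes named in this text were tested. Of these, 2 kept the call and 4 lost it.

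The gene fabp2, which encodes the fatty acid binding protein of the small intestine, was at 3.63, 6.28 and 6.95 CPM in cgas females 1, 2 and 3 and 2.98 and 3.17 CPM in cgas males 2 and 3, against 248 CPM in WT female 4 and 96.5 CPM in WT male 3. All mutants lay far below both WT libraries and also below the 7.57 to 13.1 CPM of 2-month brains. A level below 2-month brains is not particular to this gene. The pan-neuronal share lay below theirs in every 3-month library, mutant and WT. For fabp2 itself, both WT libraries lay above the 2-month range. The log2 fold change was -5.24 (SE 0.267, edgeR adjusted p = 0.00362).

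The membrane mucin gene muc13b was at 0.169, 0.0598 and 0 CPM in cgas females 1, 2 and 3 and 0 and 0.0906 CPM in cgas males 2 and 3, from 4 counts in all, against 135 CPM in WT female 4 and 49.0 CPM in WT male 3 (log2 fold change -10.42, SE 0.531, edgeR adjusted p = 0.00362). In 2-month brains it was at 0 to 0.0838 CPM, a range that took in 3 of the 5 mutants and lay just below cgas female 1 and cgas male 3. The gene tmprss15 encodes enteropeptidase, which activates trypsinogen in the gut. It had 1 count over the 5 mutants, in cgas female 1, and was at 42.4 CPM in WT female 4 and 19.9 CPM in WT male 3. The pooled WT level was 1956 times the mutant level (95% exact counting interval 350.2 to 77326, edgeR adjusted p = 0.00362). For cldn15la, which encodes a claudin of the tight junctions of the gut and is not in the list, 3 counts over the mutants stood against 445 in WT, a ratio of 297 of WT over mutants (95% exact counting interval 101 to 1444, edgeR adjusted p = 0.00827). These intervals cover counting error only. Of the 59 lower genes, 9 had 3 or fewer counts over the mutants, and 0 had none.

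The lactase gene lct was at 0.0844, 0.239 and 0.404 CPM in cgas females 1, 2 and 3 and 0.0994 and 0 CPM in cgas males 2 and 3, against 67.1 CPM in WT female 4 and 32.7 CPM in WT male 3 (log2 fold change -8.36, SE 0.538, edgeR adjusted p = 0.00465). The mutants lay within the 0.0807 to 0.586 CPM of 2-month brains, except cgas male 3 at 0. The gene mogat2, whose product rebuilds triglycerides from absorbed fat, was at 4.26 to 8.01 CPM in mutants and at 32.3 and 18.5 CPM in WT. Its change was smaller, by -2.003 on the log2 scale (edgeR, SE 0.250, adjusted p = 0.0355). The mutants lay below the 12.1 to 16.5 CPM of 2-month brains, as the pan-neuronal share did in mutants and WT alike.

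The goblet cell mucin gene muc2.1 (-5.33 on the log2 scale, SE 0.370, edgeR adjusted p = 0.00465) and the intestinal transcription factor gene cdx1b (-7.77, SE 0.524, adjusted p = 0.00465) were lower too. The level of muc2.1 was 0.397 to 2.26 CPM in mutants against 57.8 and 19.7 CPM in WT, and that of cdx1b 0 to 0.0994 CPM in mutants against 22.7 and 7.76 CPM in WT. Outside the list, plac8 (0 to 0.239 CPM in mutants, 98.1 and 40.6 CPM in WT), slc13a2, a dicarboxylate transporter gene (0 to 0.404 CPM in mutants, 47.1 and 11.2 CPM in WT), and tcnba, of the cobalamin carrier family (0 to 1.69 CPM in mutants, 255 and 116 CPM in WT), had adjusted p-values of 0.00583, 0.0262 and 0.0212 by edgeR. The gene nr0b2, which encodes a nuclear receptor of bile acid feedback, was at 0.0906 to 0.928 CPM in mutants and at 6.23 and 3.35 CPM in WT (log2 fold change -3.64, SE 0.493, edgeR adjusted p = 0.0484). In each of these genes the groups did not overlap and WT female 4 was the highest library.

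The 59 lower genes stood in a similar ratio between the WT libraries. The level in WT female 4 was above that in WT male 3 for 56 of the 59, with a median ratio of 2.42 and an interquartile range of 1.91 to 2.87. The ratio over all genes tested was not computed, and genes whose WT levels lie close together pass the test more easily. In 56 of the 59, both WT libraries lay above all 12 brains at 2 months, which held for 10.2% of all genes tested. In 40 of the 59, no mutant lay above the highest 2-month brain. The share of all genes with this trait was not computed, so the count shows nothing particular to the 59. For most of these genes the WT libraries stood above the 2-month brains. That the WT libraries stood above the mutants follows from how the genes were chosen. The same choice favours genes high in WT and low in mutants, so neither count against 2-month brains is separate support. Not all intestine genes behaved in this way. The cadherin gene cdh17 was at 303 CPM in cgas male 3, against 194 CPM in WT female 4 and 43.0 CPM in WT male 3, with 5.56 to 50.1 CPM in the other 4 mutants. Further list members highest in a mutant were ggt1b (295 CPM in cgas male 3) and apobb.1 (441 CPM in cgas female 3).

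**Figure D3:**
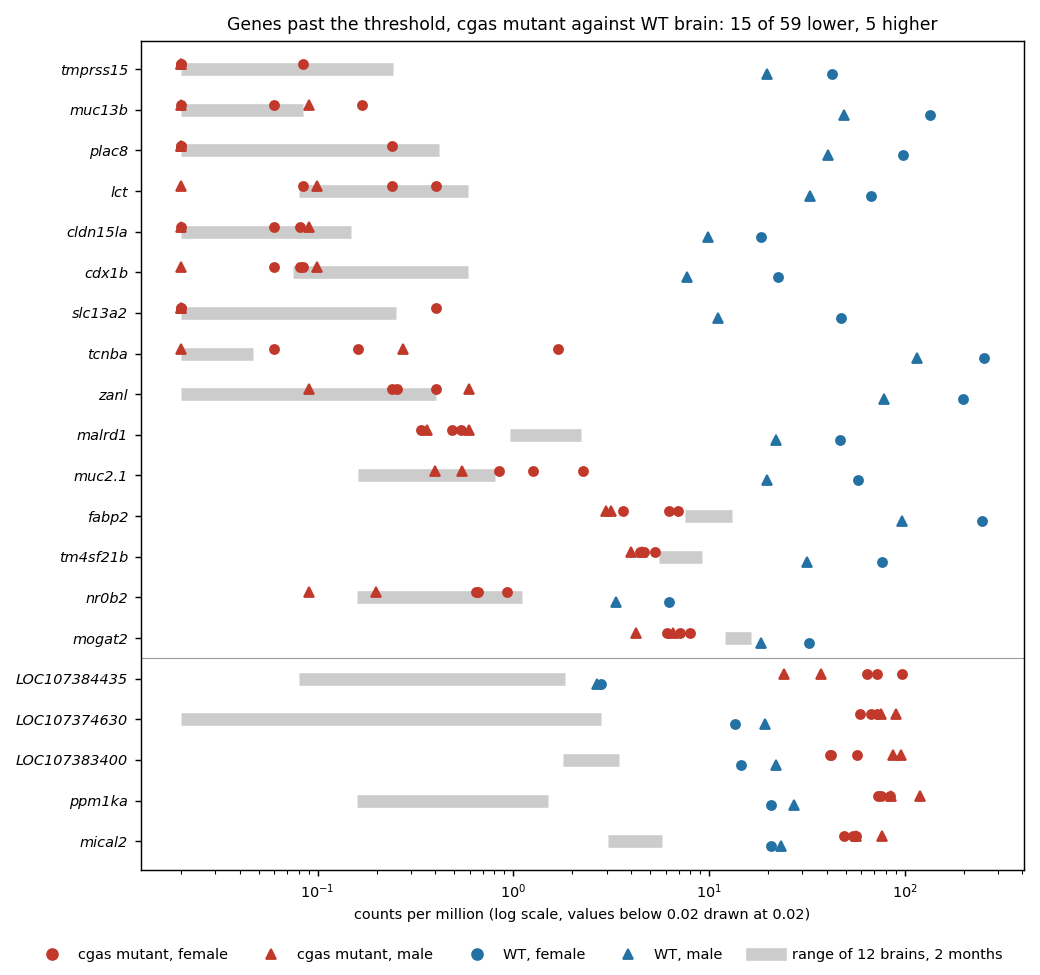
CPM (log axis) of 15 of the 59 lower genes (above the line) and the 5 higher genes (below it), with cgas mutants in red drawn above WT in blue within each row. Grey bars are the range of the 12 brains at 2 months, and they reach the mutants or lie near them for most lower genes, while both WT libraries lie above them. In the 5 higher genes, mutants and WT both lie above the grey bars.

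All 5 higher genes were also above every 2-month brain in both WT libraries. The gene ppm1ka encodes a mitochondrial phosphatase that acts on the breakdown of branched-chain amino acids. It was at 84.4, 75.4 and 73.1 CPM in cgas females 1, 2 and 3 and 85.4 and 119 CPM in cgas males 2 and 3, against 20.8 CPM in WT female 4 and 27.2 CPM in WT male 3 (log2 fold change 1.91, SE 0.205, edgeR adjusted p = 0.0216). The gene mical2, whose product oxidises actin filaments, was at 49.0, 56.7 and 54.4 CPM in cgas females and 76.5 and 56.1 CPM in cgas males, against 20.7 CPM in WT female 4 and 23.2 CPM in WT male 3 (1.43, SE 0.195, adjusted p = 0.0494). In both, every mutant lay above both WT libraries. The other 3 have no symbol. Among them, LOC107384435 was at 72.0, 64.5 and 96.5 CPM in cgas females and 24.2 and 37.2 CPM in cgas males, against 2.80 and 2.68 CPM in WT (4.15, SE 0.448, adjusted p = 0.0222).

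Most genes of the sarcomere had their highest levels in the mutants without passing the threshold. Of 48 muscle genes tested, 0 were higher by edgeR, 38 had an unadjusted p under 0.05, all of them higher, and 35 had no overlap with all mutants above WT. DESeq2 called 35 higher and 0 lower, limma voom 2 higher and 0 lower. The median log2 fold change was 1.96. Over all genes tested, 5.07% were higher at an unadjusted p under 0.05 by edgeR, and 8.58% had all mutants above WT. DESeq2 called 2.86% of all genes higher and limma voom 0.145%. The actin-binding sarcomere gene xirp2 was at 168 to 728 CPM in mutants and at 42.2 and 33.8 CPM in WT (log2 fold change 3.321, SE 0.577, edgeR adjusted p = 0.115). For acta1 the fold change was 2.28 (SE 0.716, adjusted p = 0.373), and for mylpfa, a fast-muscle myosin light chain, 2.46 (SE 0.666, adjusted p = 0.276). With the muscle share as covariate these last 2 turned to -0.47 and -0.070, a fit in which that share is itself a sum over them.

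Further genes lay just short of the threshold. The Z-disc gene mypn was at 70.7 to 213 CPM in mutants against 26.5 and 38.9 CPM in WT (1.93, SE 0.268, edgeR adjusted p = 0.0539), and ankrd1, a stress-responsive gene of muscle, at 200 to 658 CPM in mutants against 47.0 and 80.6 CPM in WT (2.34, SE 0.356, adjusted p = 0.0788). The cytosolic malate dehydrogenase gene mdh1ab was at 48.4 to 191 CPM in mutants against 8.97 and 6.96 CPM in WT (3.57, SE 0.551, adjusted p = 0.0799). In each of these, mutants and WT did not overlap and the highest library was cgas male 3.

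The respiratory chain list showed 0 higher and 0 lower of 56 genes by edgeR, 4 higher by DESeq2 and 0 by limma voom. By edgeR 15 had an unadjusted p under 0.05, all higher, beside 5.07% of all genes. In 37 all mutants lay above WT, beside 8.58% of all genes. The list's median log2 fold change was 0.65. It was -0.33 with the muscle share as covariate, a fit that is no correction for muscle. The list's members cox7a1 and cox6a2 encode subunit isoforms of cytochrome oxidase found in heart and skeletal muscle. They were at 69.9 to 189 and 114 to 390 CPM in mutants, against 25.5 to 27.8 and 63.6 to 75.6 CPM in WT, and the log2 fold changes were 2.13 (SE 0.432, edgeR adjusted p = 0.168) and 1.62 (SE 0.347, adjusted p = 0.188).

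**Figure D4:**
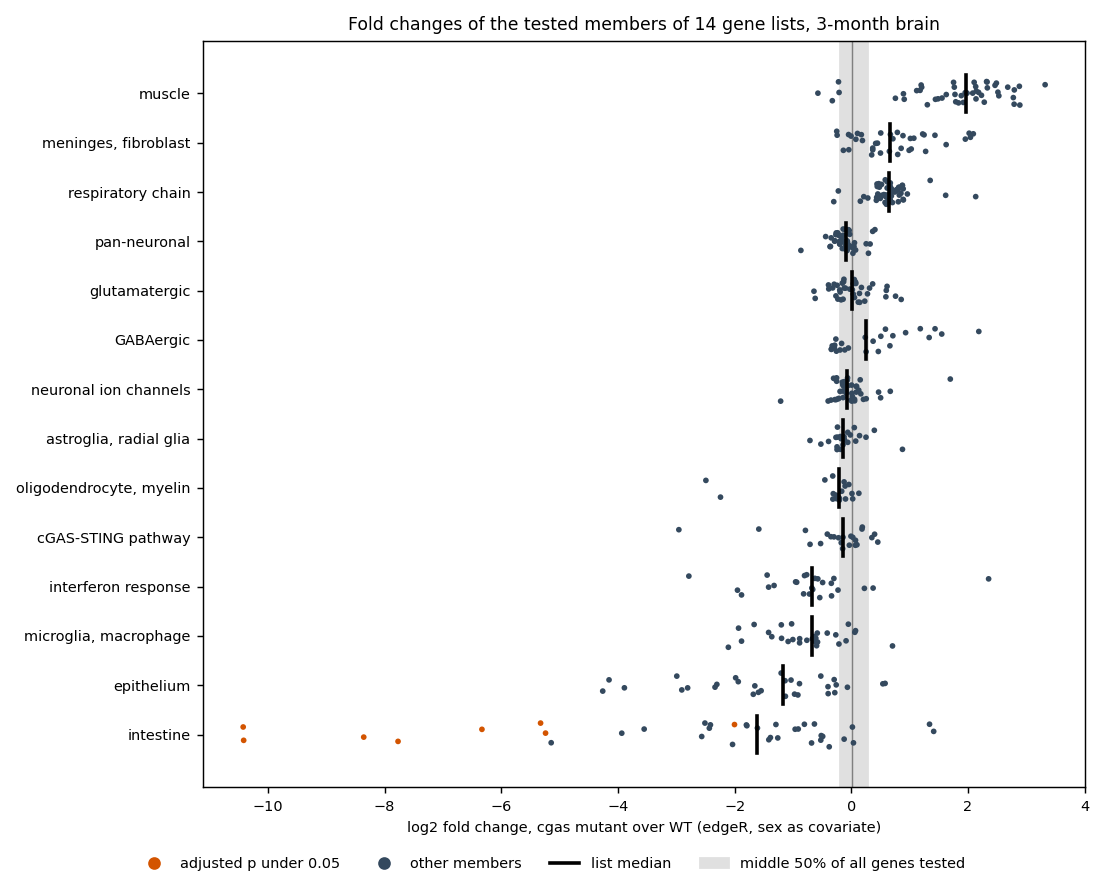
Log2 fold change of cgas mutant over WT for each tested member of 14 gene lists, with the list median as a black bar and the middle 50% of all genes tested in grey. Members past the threshold are orange and are seen in the intestine list alone of those drawn. The muscle list has a median of 1.96 and the intestine list of -1.61, while the pan-neuronal, glutamatergic and neuronal ion channel lists lie within the grey band at medians of -0.090, 0.017 and -0.078.

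Neuronal genes were tested as 4 lists, with 155 genes tested of 157 in the table. By edgeR 0 were higher and 0 lower, and 5 had an unadjusted p under 0.05, all higher, beside 5.07% of all genes tested. DESeq2 called 3 higher and 0 lower and limma voom 0. The median log2 fold change was -0.071, beside 0.015 over all genes. By list the medians were -0.090 for pan-neuronal genes, 0.017 for glutamatergic genes, 0.25 for GABAergic genes and -0.078 for ion channels. The glutamatergic median was below 0 under every other scaling, at -0.0085 with RLE factors and -0.064 with upper-quartile scaling, and with the muscle share as covariate the pan-neuronal and ion channel medians were 0.50 and 0.79. When the libraries were scaled on neuronal genes instead of by TMM, the median of all genes moved by 0.11, to 0.13. On that scale the 4 lists had medians of -0.073, -0.0053, 0.32 and -0.040, and 22 genes (0.159%) passed the threshold, 0 higher (0.0%) and 22 lower (0.159%).

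The kinase gene camk2a, abundant at excitatory synapses, was at 1298, 1056 and 1181 CPM in cgas females 1, 2 and 3 and 1996 and 639 CPM in cgas males 2 and 3, against 842 CPM in WT female 4 and 1191 CPM in WT male 3. The mutants spread on both sides of WT, with the 2 cgas males at the ends (log2 fold change 0.32, SE 0.455, edgeR adjusted p = 0.999). The AMPA receptor gene gria2 was at 208 to 445 CPM in mutants and 301 and 331 CPM in WT, and the NMDA receptor gene grin1a at 228 to 696 CPM in mutants and 443 and 440 CPM in WT. In both, cgas male 3 was lowest and cgas male 2 highest. The GABA-synthesising enzyme gene gad2 was at 288, 572 and 410 CPM in cgas females and 642 and 274 CPM in cgas males, against 518 CPM in WT female 4 and 533 CPM in WT male 3 (-0.26, SE 0.403, adjusted p = 0.999). The groups overlapped here as well. The synaptic vesicle gene vamp2 was at 686 to 1380 CPM in mutants and 926 and 1093 CPM in WT (0.045, SE 0.348, adjusted p = 0.999).

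The 5 neuronal genes with an unadjusted p under 0.05 were homer1, homer2, arx, dlx5 and cacna2d1a, which were named after their values were seen. The scaffold gene homer1 was at 39.1, 38.1 and 39.05 CPM in cgas females 1, 2 and 3 and 49.98 and 46.4 CPM in cgas males 2 and 3, against 27.3 CPM in WT female 4 and 29.6 CPM in WT male 3 (0.60, SE 0.149, edgeR adjusted p = 0.229). The mutants did not overlap with WT but lay below the 52.7 to 68.1 CPM of 2-month brains. The homeobox genes arx and dlx5 mark developing interneurons. They were at 32.5 and 19.5 CPM in cgas male 2, at 5.50 to 15.1 and 4.90 to 9.28 CPM in the other mutants, and at 3.67 to 4.75 and 2.86 to 4.48 CPM in WT (1.55 and 1.43, SE 0.516 and 0.470, adjusted p = 0.415 and 0.403). The calcium channel subunit gene cacna2d1a, which skeletal muscle also uses, was highest in cgas male 3 at 206 CPM, against 29.4 and 24.7 CPM in WT.

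Of 28 genes of monoamine and peptide neurons, edgeR and limma voom called 0, DESeq2 1 lower, and 1 had an unadjusted p under 0.05 by edgeR. This was tph1, a gene of serotonin synthesis, at 5.99, 10.1 and 15.7 CPM in cgas females 1, 2 and 3 and 20.5 and 8.16 CPM in cgas males 2 and 3, against 31.6 CPM in WT female 4 and 62.8 CPM in WT male 3 (-1.85, SE 0.455, edgeR adjusted p = 0.226). All mutants lay below WT, and 2-month brains, at 18.0 to 76.1 CPM, took in both WT libraries and, of the mutants, cgas male 2. Of 25 immediate-early and stress genes, edgeR and limma voom called 0, DESeq2 1 higher and 1 lower, and 1 gene each way had an unadjusted p under 0.05 by edgeR (median -0.24). The activity-induced gene egr1 was at 86.0 to 304 CPM in mutants and at 283 and 402 CPM in WT, with cgas male 3 lowest.

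Relative to the pan-neuronal sum, the other neuronal classes were in a narrow range. The glutamatergic sum was 0.269, 0.236 and 0.229 of the pan-neuronal sum in cgas females 1, 2 and 3 and 0.246 and 0.212 in cgas males 2 and 3, against 0.221 in WT female 4 and 0.243 in WT male 3. The GABAergic sum was 0.134, 0.148 and 0.133 of it in cgas females and 0.145 and 0.157 in cgas males, against 0.157 in WT female 4 and 0.158 in WT male 3. For ion channels the ratio was 0.191 to 0.247 in mutants, against 0.225 and 0.209 in WT. The glutamatergic and ion channel ratios overlapped between the groups, and the GABAergic ratio was below WT in all mutants by a small margin. Within 2-month brains these 3 ratios spanned 0.226 to 0.291, 0.159 to 0.200 and 0.189 to 0.279. The pan-neuronal share itself ran from 0.582 to 1.97% among the mutants.

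**Figure D5:**
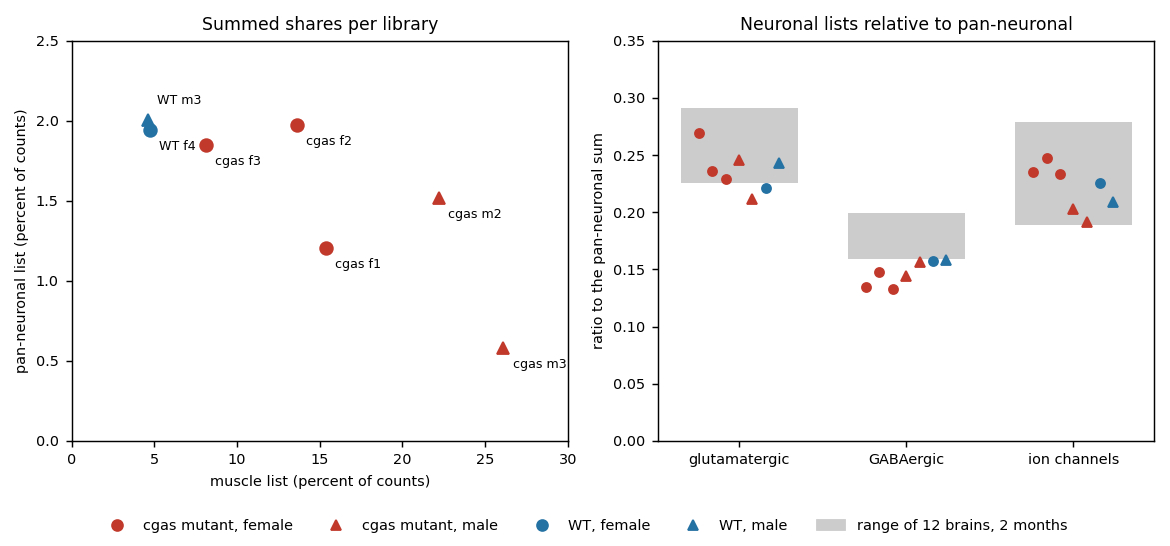
Left, the muscle share against the pan-neuronal share (percent of counts) in the 7 libraries. Right, the summed glutamatergic, GABAergic and ion channel lists as a ratio to the pan-neuronal sum, mutants left of WT in each class, with the range of 2-month brains in grey. The pan-neuronal share is 0.582% in cgas male 3, where the muscle share is 26.1%, while the glutamatergic ratio lies between 0.212 and 0.269 in all 7 libraries.

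Glial genes did not pass the threshold. Of 23 astroglial and radial glial genes tested, 0 were called by edgeR, DESeq2 or limma voom, and 0 had an unadjusted p under 0.05 (median -0.14, and 0.14 with the muscle share as covariate). Their summed share of plain totals was 0.361 to 0.825% in mutants, below the 0.890% of WT female 4 and 1.05% of WT male 3. The fold changes use TMM-scaled totals, with factors from 0.639 in cgas male 3 to 1.29 in WT female 4. The glutamine synthetase gene glula was at 634 to 1069 CPM in mutants and 836 and 1093 CPM in WT. Of 19 myelin genes, edgeR and limma voom called 0, DESeq2 called 2 lower, and 2 had an unadjusted p under 0.05 by edgeR (median -0.21). The myelin genes mpz and mbpb were at 1577 to 2828 and 390 to 591 CPM in mutants, against 2254 to 2637 and 490 to 584 CPM in WT. These ranges overlapped. The neuregulin receptor gene erbb3 was at 3.48 to 5.38 CPM in mutants, against 13.3 CPM in WT female 4 and 34.5 CPM in WT male 3 (-2.24, SE 0.390, edgeR adjusted p = 0.115). Of 30 epithelial genes tested, edgeR and limma voom called 0, DESeq2 8 lower, and 10 had an unadjusted p under 0.05 by edgeR, all lower (median -1.17, and 0.60 with the muscle share as covariate). Over all genes tested, 1.78% were lower by DESeq2 and 3.32% at an unadjusted p under 0.05 by edgeR. The library with the highest erbb3, WT male 3, also had the highest summed share of epithelial genes, 0.255%, against 0.0390 to 0.0733% in mutants and 0.0846% in WT female 4. Whether erbb3 and this share are linked was not tested.

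Interferon and inflammatory genes did not pass the threshold, and WT female 4 had the highest summed share of the interferon list. Of 25 interferon response genes, edgeR and limma voom called 0 and DESeq2 3 lower, where DESeq2 called 1.78% of all genes lower. By edgeR 7 of the 25 had an unadjusted p under 0.05, all lower (median -0.68), beside 3.32% of all genes. The summed share was 0.0513, 0.07235 and 0.0666% in cgas females 1, 2 and 3 and 0.0743 and 0.0452% in cgas males 2 and 3, against 0.213% in WT female 4 and 0.0826% in WT male 3. WT male 3 lay close above the mutants and WT female 4 stood apart. The transcription factor gene irf1b was at 11.2, 6.34 and 5.01 CPM in cgas females and 3.68 and 12.3 CPM in cgas males, against 90.6 CPM in WT female 4 and 23.6 CPM in WT male 3 (-2.79, SE 0.611, edgeR adjusted p = 0.194). The gene b2m, the invariant chain of MHC class I, was at 36.0 to 136 CPM in mutants and at 331 and 103 CPM in WT, with an overlap between cgas male 3 and WT male 3 (-1.95, SE 0.671, adjusted p = 0.439).

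In the feedback inhibitor gene socs3 both WT libraries were alike. It was at 14.4, 12.1 and 12.7 CPM in cgas females 1, 2 and 3 and 11.5 and 12.1 CPM in cgas males 2 and 3, against 24.7 CPM in WT female 4 and 23.6 CPM in WT male 3. The groups did not overlap, and the range of 2-month brains, 9.13 to 38.997 CPM, took in both (log2 fold change -0.96, SE 0.180, edgeR adjusted p = 0.136). Of 22 genes of the NF-kB response, edgeR and limma voom called 0, DESeq2 1 lower, and 4 had an unadjusted p under 0.05 by edgeR, all lower (median -0.61). Among them, the cytokine gene tnfa was at 0.162 to 0.725 CPM in mutants, at 7.72 CPM in WT female 4 and at 0.669 CPM in WT male 3 (-3.47, SE 1.07, adjusted p = 0.365). Of 29 microglia and macrophage genes tested, edgeR and limma voom called 0, DESeq2 1 lower, and 3 had an unadjusted p under 0.05 by edgeR, all lower (median -0.67). Over all genes tested, 3.32% were lower at an unadjusted p under 0.05 by edgeR. The antigen presentation gene cd74 was at 32.4 to 120 CPM in mutants and at 423 and 168 CPM in WT (-1.93, SE 0.552, edgeR adjusted p = 0.309). The share of the macrophage list was 0.0662 to 0.240% in mutants, against 0.384% in WT female 4 and 0.175% in WT male 3.

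The DNA damage response was examined because the series is built on DNA repair mutants. Of 23 p53 target and DNA damage genes, edgeR and limma voom called 0, DESeq2 1 higher, and 1 had an unadjusted p under 0.05 by edgeR (median 0.11, and -0.28 with the muscle share as covariate). This was tigara, which encodes a p53-induced phosphatase of sugar metabolism, at 7.17, 6.04 and 7.60 CPM in cgas females 1, 2 and 3 and 10.04 and 13.6 CPM in cgas males 2 and 3, against 1.37 CPM in WT female 4 and 5.35 CPM in WT male 3 (1.70, SE 0.388, edgeR adjusted p = 0.208). The cyclin G gene ccng1, another p53 target, was at 1177 to 2872 CPM in mutants and at 938 and 1180 CPM in WT, with a small overlap.

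Single libraries carried markers of further tissues. In cgas female 3, liver genes took 1.33% of counts, against 0.112 to 0.154% in the other mutants, 0.302% in WT female 4 and 0.304% in WT male 3. The fibrinogen gene fga was at 621 CPM there, at 0.506 to 3.53 CPM in the other mutants and at 0.747 and 4.55 CPM in WT. In cgas female 1, star, whose product brings cholesterol into mitochondria for steroid synthesis, was at 117 CPM, against 1.39 to 34.9 CPM in the other mutants and 3.67 and 0.201 CPM in WT. Fibroblast and meningeal genes took 1.45% of counts in the same library, against 0.513 to 0.852% in the other mutants and 0.585 and 0.567% in WT. Of 37 genes of that list, edgeR and limma voom called 0, DESeq2 4 higher, and 7 had an unadjusted p under 0.05 by edgeR, all higher (median 0.67, and -0.051 with the muscle share as covariate). Over all genes tested, 2.86% were higher by DESeq2 and 5.07% at an unadjusted p under 0.05 by edgeR. In cgas male 3, ggt1b, a gamma-glutamyltransferase gene of the intestine list, was at 295 CPM. It was at 0.591 to 3.31 CPM in the other mutants and at 17.6 and 2.74 CPM in WT. In WT male 3, pitx1, a homeobox gene of hindlimb, pituitary and oral epithelium, was at 94.6 CPM, against 0.453 to 4.12 CPM in mutants and 0.560 CPM in WT female 4. The cone phosphodiesterase gene pde6h was at 144 and 101 CPM in cgas female 3 and cgas male 2, against 0.506 to 15.0 CPM in the other mutants and 6.91 and 8.30 CPM in WT.

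A second contrast of cgas genotypes, free of these libraries, was available at 2 months in atm cgas double mutants against atm mutants. By edgeR, 0 of 13392 genes passed (0.0%), with 683 at an unadjusted p under 0.05 (5.1%). Of the 59 genes lower at 3 months, 22 were abundant enough to be tested there, 0 of them had an unadjusted p under 0.05, and their median log2 fold change was -0.077. The muscle and intestine lists had medians of -0.0084 over 42 genes and -0.0020 over 20 genes, and the neuronal lists -0.040 over 156, beside 0.0081 over all genes. The targeted gene, sting1 and irf1b did not pass there either, and their fold changes had the opposite sign to those at 3 months. For mb21d1 the log2 fold change was 1.37 (SE 0.786, edgeR adjusted p = 0.843), for sting1 1.18 (SE 0.708, adjusted p = 0.843) and for irf1b 2.40 (SE 1.14, adjusted p = 0.843).

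The difference between the cgas contrasts was itself past the threshold for 225 of 14268 genes (1.58%), 122 with a higher (0.855%) and 103 with a lower (0.722%) log2 change at 3 months. Among them were 48 of the 59 lower and 3 of the 5 higher genes, 6 of 48 muscle genes in the higher direction, 6 of 37 intestine genes in the lower direction and 1 of 156 neuronal genes. The 59 and 5 genes were chosen on the same 3-month values that enter this difference, so that overlap is no separate result. The fit estimated 1 spread per gene over the 7 libraries at 3 months and the 12 at 2 months together. For vamp2 the SE of the difference was 0.274, below the 0.348 of the 3-month contrast alone. SE and p-values of this difference can therefore be too small, and the count of 225 too high. For fabp2 the log2 difference of the contrasts was -5.38 (SE 0.272, edgeR adjusted p = 5.56e-08). For mb21d1 it was -4.30 (SE 1.23, adjusted p = 0.111), for sting1 -2.81 (SE 1.09, adjusted p = 0.268) and for irf1b -5.19 (SE 1.38, adjusted p = 0.0815), none of them past the threshold. The count was 591 without WT female 4 and 77 without WT male 3. The experiments also differ in age, in the atm mutation and in the libraries' content of other tissues, and these cannot be told apart.

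Males and females were compared across the same 7 libraries, with genotype held as a covariate. By edgeR 0 of 13825 genes differed between males and females (0.0%), with 467 at an unadjusted p under 0.05 (3.38%). The difference between cgas mutants and WT differed between the sexes at 0 genes (0.0%), with 764 at an unadjusted p under 0.05 (5.53%). With 1 WT library per sex, the second test rests on single WT fish.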

How the data were processed

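PolyA RNA was sequenced single-end, per the labels' protocols. The authors deposited raw read counts, 1 column per sample, without any scaling. The submitters' processing notes name FastQC 0.11.8, Trim Galore 0.6.4, cutadapt 3.4, STAR 2.7.6a and edgeR 3.32.1. Genome build, annotation, strand setting and counter are not given in the sources used here, so near-identical, overlapping or antisense genes are uncertain. The 3-month table holds 16383 gene names, of which 8 had turned into dates and were restored by position. Symbols of LOC names came from the gene table of assembly NfurGRZ-RIMD1 (3541 of 8780 matched).

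Tests used edgeR 4.0.16 in R 4.3.3: TMM scaling, filterByExpr, robust quasi-likelihood fits with sex as covariate, and Benjamini-Hochberg adjustment with a threshold of 0.05, checked on simulated data. The difference of the cgas contrasts was an interaction over both brain experiments, with 1 spread per gene for both. CPM use TMM-scaled totals, and list shares use plain totals. DESeq2 1.42.0, limma 3.58.1, other scalings and filters, and each library left out were alternatives. Log2 CPM (prior count 2) of the target genes were compared over the 21 regroupings of the libraries. Genes were named by rule: targets, the 12 most changed each way, leading members of each list and of each library. Where fewer than 12 passed the threshold in a direction, genes with the smallest unadjusted p by edgeR filled the places. Leading genes of the WT pair and of the difference of contrasts were named too. From these some were taken for the text, while a few single-gene results were left out. The genes muc2.1, mogat2 and LOC107384435 were added outside this rule. The members and lists were chosen with earlier results of these data known. P-values measure the spread between these libraries, since nothing states how the fish were sampled.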

Additional observations from a re-analysis of the deposited data

Results flagged for a closer look

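Among the 5 cgas mutants, 1 library lay far from the other 4 for 3 of 31 list shares and 20 of 100 genes checked. Chance flags about 1 in 20 groups, but some of these genes were named because a single library stood far above the others. The count of genes flagged therefore cannot be set against that rate. Genes of one tissue are also flagged together. In cgas female 3 the liver list took 1.33% of counts and the macrophage list 0.240%. The same library stood apart at 621 CPM of fga, 524 CPM of fgb, 292 CPM of habp2, 441 CPM of apobb.1 and 2184 CPM of apoa2. These are known as liver genes, but apobb.1 stands in the intestine list here. Among the mutants that library stood apart as well at 104 CPM of fcgbp, 5.34 CPM of foxe1 and 0.404 CPM of slc13a2. In WT male 3 these genes were higher still, at 165, 21.3 and 11.2 CPM. In cgas female 1 the list of germ cell and gonadal steroid genes took 0.0232% of counts, with star at 117 CPM, and tcnba was at 1.69 CPM and tmprss15 at 0.0844 CPM. In cgas male 3 the values that stood apart were 303 CPM of cdh17, 295 CPM of ggt1b, 75.0 CPM of slc25a15, 862 CPM of slc4a1, 658 CPM of ankrd1, 136 CPM of b2m and 119 CPM of ppm1ka. In cgas male 2 it was mical2 at 76.5 CPM, and in cgas female 2 plac8 at 0.239 CPM. The flagged values of plac8, slc13a2 and tmprss15 are 4, 5 and 1 counts. The other 4 mutants had 0 counts in each, so any read would be flagged. The part of all these values in the comparison with WT was not tested beyond leaving each library out.

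The change with the cgas mutation differed between the 3-month brains and the atm mutant brains at 2 months for 225 genes by an interaction test (edgeR, adjusted p under 0.05). This test pooled the spread of both experiments, so its p-values can be too small. The log2 difference was -5.38 for fabp2, -3.48 for tm4sf21b and -6.12 for malrd1, and 2.36 for LOC107384115, 1.84 for LOC107383400 and 2.51 for LOC107387199. Age, the atm mutation and the experiment cannot be told apart in this difference.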

How the results depend on the processing

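The count of 64 genes became 22 when scaled on neuronal genes, 7 with the stricter filter, 642 with DESeq2, 114 with limma voom, 0 with the muscle share as covariate and 36 without cgas male 3 and cgas female 1 together. Leaving out 1 library gave 0 (WT female 4) to 84 (cgas male 3). It was 64 with RLE factors, 68 with upper-quartile scaling, 63 without the filter, 77 without sex, 85 without both cgas males and 64 without the muscle genes. The muscle covariate and the last 2 and the joint omission were chosen after seeing the data. Counts of 0 for sex, genotype by sex and the 2-month contrast did not change in their alternatives. The difference of contrasts went from 77 (without WT male 3) to 591 (without WT female 4), with 243 by RLE and 219 without the filter. No paired analysis was possible because the 3-month groups share 1 replicate number, and at 2 months the replicate block gave 0 genes, as without it.

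The mb21d1 difference ranged from -4.04 to -0.41 and that of sting1 from -2.68 to 0.17 with 1 library left out. In those fits log2 fold changes ranged from -2.66 to 0.35 for sting1, -0.16 to 0.51 for camk2a and -0.25 to 0.16 for vamp2. List medians ranged from -1.28 to 0.19 for interferon genes and -0.40 to 0.080 for neuronal genes. With the muscle covariate, signs turned for acta1 (-0.47), mylpfa (-0.070), gad2 (0.090) and the neuronal median (0.65), and also for the medians of the pan-neuronal, ion channel, astroglial, fibroblast, epithelial, p53 and respiratory chain lists, given with each list. Other medians grew in size with it, to -1.86 for interferon, -2.56 for macrophage, -1.37 for NF-kB and -0.97 for cGAS-STING genes. Those of the intestine and liver lists grew to -2.59 and 5.52, while the muscle median fell to 0.34. The liver share of cgas female 3, at 1.33%, stood far above that of the other mutants. Without cgas male 3 and cgas female 1, gad2 was at 0.019 and the neuronal median at 0.18, and that median was 0.054 without both males. For vamp2 the fold change was -0.031 with upper-quartile scaling, -0.038 with the stricter filter and -0.0080 with limma voom. The cause of these changes was not tested. Muscle share and genotype go together in these libraries, so the covariate fit cannot well separate them. None of the 15 named genes past the threshold changed direction in those of 19 alternatives that tested them. All 15 lost the call with the muscle covariate, and the log2 fold changes of some moved by several units. Without WT female 4 and with the covariate, in that order, tmprss15 was at -10.99 and -11.80, lct at -9.15 and -6.16, fabp2 at -4.96 and -5.01, and ppm1ka at 1.92 and 1.604. For slc13a2, -8.67 became -3.05 with the covariate.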
